A study of Homo sapiens with 27 samples.

Results

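U2-OS, a human line from an osteosarcoma (a bone-forming tumour, labelled bone), was set against U251, a human line from a glioblastoma (a tumour of glial brain cells, labelled brain). The comparison rests on 6 of the 27 poly-A RNA libraries of a survey of 9 cell lines, the 3 that the labels name U2-OS and the 3 they name U251. Per the series design the 3 are biological replicates of their line. Since nothing says whether the cultures were separate, the p-values cover only the variation among these 6 libraries and the rest of the fit. Both lines were untreated established tumour lines grown at 37 °C with 5% CO2 and 10% serum. U2-OS grew in McCoy medium and U251 in EMEM, so line and medium cannot be told apart.

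A tumour line keeps part of the programme of the cell it came from and adds the changes of the tumour. Osteoblasts secrete a matrix of type I collagen and mineralise it, under control of bone morphogenetic proteins (BMPs), WNT and Hedgehog signals. Astroglial cells and their precursors are marked by the filament protein GFAP, the calcium-binding protein S100B, the lipid carrier FABP7 and the stem cell factor SOX2. U2-OS is widely used as a line that keeps its telomeres without telomerase.

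The U2-OS libraries held 24009531 to 26379506 estimated counts and the U251 libraries 18671959 to 28511206. Rank correlations between libraries of a line ran from 0.966 to 0.991 in U2-OS and from 0.966 to 0.988 in U251. Mitochondrial transcripts took 1.27% to 1.39% of the counts in U2-OS and 0.96% to 1.48% in U251. Protein-coding genes at 1 TPM or more (each transcript's share of the molecules in a library, corrected for length) numbered 12507 to 12828 in U2-OS and 11502 to 11601 in U251, ranges that did not overlap. Below, TPM values are levels, given per library or as mean ± SD over 3 libraries, and log2 fold changes are U2-OS over U251 from a fit of estimated counts over all 27 libraries. A gene was called where its Benjamini-Hochberg adjusted p from edgeR's quasi-likelihood test was under 0.05 and its absolute log2 fold change at least 1.

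Of 17220 genes tested, 3776 (21.9%) were higher in U2-OS and 2385 (13.9%) were lower. Every count of list members or markers below is to be read against these 2 shares, and a list near them does not stand out. Counts given for an alternative test are to be read against the totals of that test. Of the same 17220 genes, 3185 were higher and 1268 lower on the log2(TPM + 1) scale. Tested against a 2-fold change, 2776 were higher and 1385 lower. For 5934 of the 6161 genes called in the main fit, the 3 libraries of one line all lay above the 3 of the other in normalised counts. The calls were made from the same libraries and favour such genes, so this count is no separate support. It was not made for all tested genes. The median log2 fold change over all tested genes was 0.09. The surplus of higher genes lay at low levels: among called genes at 10 TPM or more in the line where they were higher, 1330 were higher in U2-OS and 1408 were lower. At 10 TPM or more in U2-OS and under 0.1 TPM in every U251 library there were 113 protein-coding genes, against 15 for the converse. Tested as log2(TPM + 1), 71.5% of the calls were higher ones, against 61.3% in the count fit. The log2(TPM + 1) test added no further scaling between libraries, unlike the count fit, and its median log2 fold change was 0.19. Among the 36 pairs of the 9 lines, this pair ranked 8 from the fewest calls.

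Of the 12 protein-coding genes with the largest rise among those at 10 TPM or more in U2-OS, 11 had no counts at all in U251. The tubulin gene TUBA3C (chr13:19173770-19181852) had no counts in U251 and was at least 4702-fold higher in U2-OS, against a floor of 3 counts over the 3 libraries. The keratin KRT75 had 185, 116 and 137 TPM in the U2-OS libraries, against 0 TPM in all 3 U251 libraries (at least 4732-fold). Intervals given below for genes with 1 to 3 counts in a line cover counting error only. Other genes at 0 counts in U251 were ANOS1, an extracellular protein of neuronal migration (15.3, 20.3 and 38.5 TPM in U2-OS; at least 1696-fold), the dopamine receptor gene DRD1 (33.7, 34.8 and 8.5 TPM in U2-OS; at least 1492-fold), the fatty acid carrier FABP5, FXYD6, NYNRIN and CDKN2C, an inhibitor of the cyclin D kinases (55, 56 and 36.2 TPM in U2-OS; at least 1193-fold). HAPLN1, a link protein that ties hyaluronan to cartilage proteoglycan, had 320, 354 and 127 TPM in the U2-OS libraries, against 0.00944, 0.00948 and 0 TPM in the U251 libraries. HAPLN1 was 11601-fold higher in U2-OS with 2 counts in U251, 95% counting interval 3211 to 95800, adjusted p = 2.62e-10. TUBA3C, PAGE2B, RFPL4A and FABP5 have near-identical copies, and how their reads were divided among the copies is uncertain.

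In the opposite direction, UCHL1, a ubiquitin hydrolase abundant in neurons, reached 0.42, 0.663 and 0.427 TPM in the U2-OS libraries, against 1891, 1844 and 1991 TPM in the U251 libraries (log2 fold change -12.24, SE 0.56, adjusted p = 8.40e-15), and the 7 other lines also lay below U251. POU3F2, a neural transcription factor, had no counts in U2-OS and 23.2, 32.4 and 19.7 TPM in the U251 libraries, at least 2517-fold lower in U2-OS. POPDC3, a membrane protein of the Popeye family, likewise had no counts in U2-OS and 109, 123 and 95.9 TPM in U251, and its neighbour BVES of the same family had 0.0298, 0 and 0.0202 TPM in the U2-OS libraries, against 23.8, 34.1 and 20.1 TPM in the U251 libraries. NT5E, the ecto-enzyme CD73 that makes adenosine, had 0.032, 0.183 and 0.146 TPM in the U2-OS libraries, against 457, 515 and 262 TPM in the U251 libraries. NT5E had a log2 fold change of -12.15 (SE 0.64, adjusted p = 1.02e-13). MARCKS, an actin-binding substrate of protein kinase C, had 0.118, 0.0495 and 0.0664 TPM in the U2-OS libraries, against 221, 287 and 141 TPM in the U251 libraries. MARCKS had a log2 fold change of -11.62 (SE 0.74, adjusted p = 3.49e-12). DKK1, a secreted WNT inhibitor, had 0.102, 0.191 and 0.529 TPM in the U2-OS libraries, against 287, 352 and 185 TPM in the U251 libraries. DKK1 had a log2 fold change of -10.66 (SE 0.45, adjusted p = 2.70e-15). NRP2, a co-receptor for semaphorins and VEGF, averaged 0.585 ± 0.219 TPM in U2-OS, against 359 ± 29.5 TPM in U251. BTBD6, FAM89A, EYA4 and CBSL completed the 12 lower genes with the largest change; CBSL shares its sequence with CBS, so its value is uncertain.

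**Figure D1:**
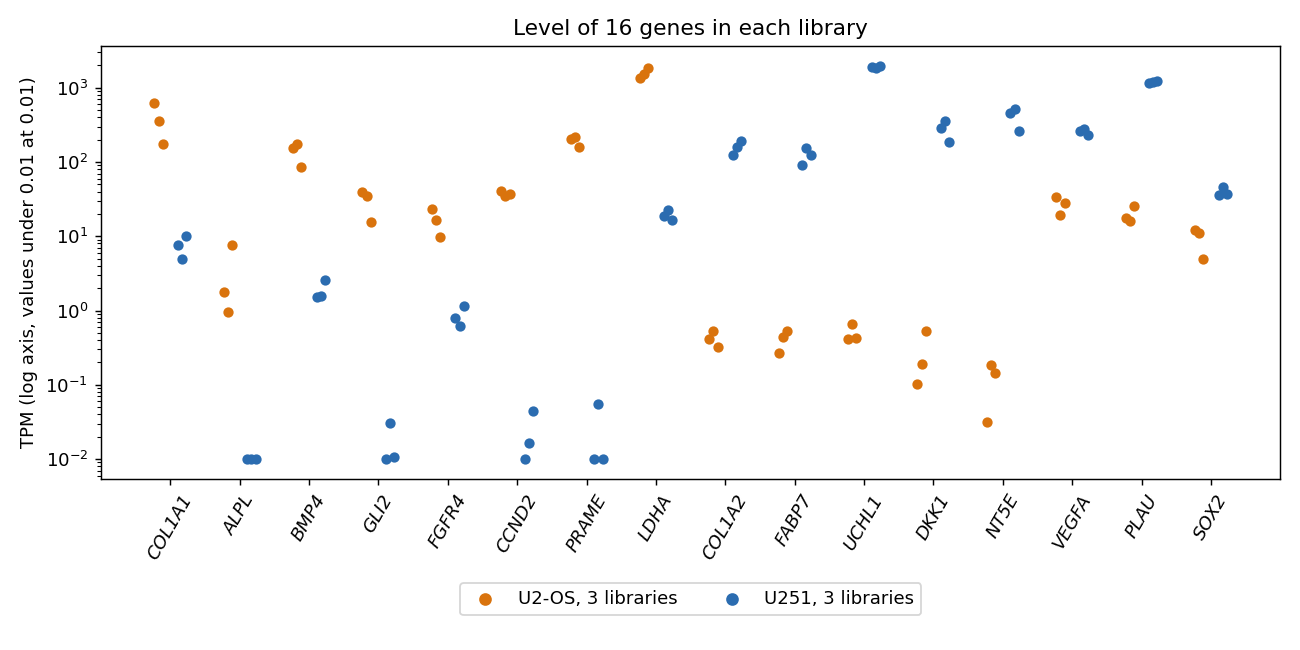
TPM of 16 genes named in the text in each of the 3 U2-OS libraries (orange, left of each pair) and the 3 U251 libraries (blue, right), on a log axis with values under 0.01 drawn at 0.01. UCHL1, DKK1 and COL1A2 lie at or below 1 TPM in every U2-OS library and above 100 TPM in every U251 library, and LDHA shows the reverse order, with 1342 to 1830 TPM in U2-OS.

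Neither line held the full marker set of its tissue of origin. Of 13 tested osteoblast markers, 6 were higher in U2-OS and 2 lower, with a median log2 fold change of 0.86. The chain COL1A1 of type I collagen had 618, 359 and 176 TPM in the U2-OS libraries, against 7.69, 4.91 and 9.94 TPM in the U251 libraries. COL1A1 had a log2 fold change of 6.29 (SE 0.73, adjusted p = 1.12e-07). Its partner chain COL1A2 went the other way, with 0.42, 0.535 and 0.326 TPM in the U2-OS libraries, against 123, 160 and 190 TPM in the U251 libraries (log2 fold change -9.50, SE 0.87, adjusted p = 2.05e-09), so that U2-OS held mostly the first chain and U251 the second by TPM. TNFRSF11B, the osteoprotegerin that blocks osteoclast formation, averaged 39.8 ± 15.3 TPM in U2-OS, against 0.676 ± 0.185 TPM in U251 (log2 fold change 6.18), and the transcription factor MSX2 5.74 ± 0.7 TPM in U2-OS, against 0.017 ± 0.0294 TPM in U251. SPP1, the bone sialoprotein osteopontin, was lower at 3.34 ± 0.629 TPM in U2-OS, against 48.7 ± 15 TPM in U251 (log2 fold change -4.07). ALPL, the alkaline phosphatase of mineralisation, and RUNX2, the master factor of osteoblasts, were chosen after their values were seen. ALPL had 1.79, 0.954 and 7.67 TPM in the U2-OS libraries, against 0 TPM in all 3 U251 libraries, at least 106-fold higher in U2-OS, and RUNX2 averaged 12.2 ± 2.47 TPM in U2-OS, against 17.7 ± 5.04 TPM in U251 without a call (log2 fold change -0.84, SE 0.28, adjusted p = 0.0145). The late osteoblast genes SP7, IBSP, DMP1 and MEPE did not reach the minimum count for testing, with means of at most 0.0221 TPM in U2-OS and 0.0195 TPM in U251. Summed over the 18 osteoblast markers, SPARC included, levels were 2548 to 3566 TPM in U2-OS and 1821 to 2502 TPM in U251. SPARC, a collagen-binding protein chosen after its values were seen, made up most of each sum (2522 ± 313 TPM in U2-OS, against 1994 ± 334 TPM in U251) and was not called (log2 fold change -0.24, SE 0.39, adjusted p = 0.63).

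Of 9 tested cartilage markers 5 were higher in U2-OS and 0 lower. HAPLN1 above, the matrix protein MATN3 (14.5 ± 3.26 TPM in U2-OS, against 0.919 ± 0.357 TPM in U251) and the chondrogenic factor SOX6 (11.5 ± 4.7 TPM in U2-OS, against 1.71 ± 0.243 TPM in U251) were among them. COL2A1 was called higher at only 0.588 ± 0.474 TPM in U2-OS. COL9A1 and COMP averaged 0.0343 and 0.106 TPM there and were not called. COL11A1 and SOX5, chosen after their values were seen, were not called either, and COL10A1 did not reach testing. Glial markers split evenly by calls, 4 of 15 higher and 4 lower with a median of -0.38. Among the lower ones, SLC1A3 had mean TPM values in the opposite order (34 in U2-OS, against 29.3 in U251). Among the higher ones, NCAN, ATP1B2 and CHI3L1, chosen after their values were seen, averaged only 0.343, 1.53 and 2.61 TPM in U2-OS. FABP7 (chr6:122779475-122784074) had 0.267, 0.444 and 0.532 TPM in the U2-OS libraries, against 92.1, 157 and 125 TPM in the U251 libraries. FABP7 had a log2 fold change of -8.12 (SE 0.45, adjusted p = 2.59e-13). S100B had 0.164, 0.161 and 0.562 TPM in the U2-OS libraries, against 12.9, 17.5 and 17.8 TPM in the U251 libraries. S100B had a log2 fold change of -5.84 (SE 0.48, adjusted p = 3.19e-10). GFAP, the defining filament of astrocytes, was low in both at 1.27 ± 0.621 TPM in U2-OS, against 3.11 ± 1.86 TPM in U251 and was not called (log2 fold change -1.11, SE 0.59, adjusted p = 0.118). ALDH1L1, a folate enzyme used as an astrocyte marker, was higher in U2-OS at 7.56 ± 2.92 TPM in U2-OS, against 0.225 ± 0.0743 TPM in U251 (log2 fold change 5.70), and the water channel AQP4 did not reach testing.

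Of 14 tested neural stem and glioma markers, 8 were higher in U2-OS and 3 lower. SOX2 was lower (9.41 ± 3.88 TPM in U2-OS, against 39.4 ± 5.75 TPM in U251; log2 fold change -2.30, SE 0.37, adjusted p = 2.85e-05), as were POU3F2 above and the hyaluronan receptor CD44 (92.1, 81 and 275 TPM in the U2-OS libraries, against 518, 717 and 413 TPM in the U251 libraries). The Hedgehog effector GLI2 and the receptor NOTCH3 were higher (values below). Of 13 neuronal markers 7 were higher and 2 lower (3 higher on the log2(TPM + 1) scale): the neurofilament NEFL was higher (26.2 ± 4.39 TPM in U2-OS, against 0.72 ± 0.419 TPM in U251) and the microtubule protein MAP2 lower (2.98 ± 1.42 TPM in U2-OS, against 16.2 ± 0.67 TPM in U251). Of 7 tested muscle markers 2 were higher and 1 lower. The smooth muscle myosin light chain MYL9 had 197, 176 and 95.1 TPM in the U2-OS libraries, against 0.192, 0.195 and 0.0887 TPM in the U251 libraries (log2 fold change 9.76, SE 0.71, adjusted p = 4.03e-11), and the calponin CNN1 averaged 27.6 ± 11.2 TPM in U2-OS, against 0.783 ± 0.281 TPM in U251. The smooth muscle actin ACTA2 was lower (1.85 ± 0.249 TPM in U2-OS, against 9.86 ± 2.3 TPM in U251; log2 fold change -2.85, SE 0.53, adjusted p = 7.02e-05). Of 13 epithelial markers 5 were higher and 1 lower, with keratins 8 and 18, filaments of simple epithelia, among the higher ones, KRT8 at 538 ± 20.8 TPM in U2-OS, against 23 ± 3.23 TPM in U251 and KRT18 at 484 ± 120 TPM in U2-OS, against 115 ± 18.7 TPM in U251. Of 8 tested haematopoietic and microglial markers 1 was higher and 3 were lower. PTPRC, the leukocyte phosphatase CD45, was chosen after its values were seen. It was higher at 2.16 ± 0.0733 TPM in U2-OS, against 0.704 ± 0.123 TPM in U251 (log2 fold change 1.65). The lower ones were the growth factor receptor CSF1R (0.383 ± 0.201 TPM in U2-OS, against 6.96 ± 1.24 TPM in U251), the lysosomal protein LAPTM5 (0.824 ± 0.525 TPM in U2-OS, against 9.15 ± 2.03 TPM in U251) and the lysosomal macrophage marker CD68 (6.1 ± 6.91 TPM in U2-OS, against 52.3 ± 3.85 TPM in U251); AIF1 and TYROBP, which define microglia, did not reach testing in these lines. Fibroblast markers lay on both sides (5 of 15 higher, 6 lower; 3 and 3 when tested against a 2-fold change). Endothelial markers were higher in 4 of 8 and lower in 1 (1 and 0 on the log2(TPM + 1) scale), at summed levels of at most 7.23 TPM in U2-OS and 3.41 TPM in U251. Of 7 melanocyte markers 0 were called by edgeR in either direction, with 1 higher and 0 lower at an unadjusted p under 0.05 and 1 higher by DESeq2 and by limma.

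Of 30 genes known to be induced by DNA damage, 10 were higher in U2-OS and 4 lower (median 0.75), against 21.9% and 13.9% of all genes. The ubiquitin ligase MDM2 was higher, with 44.1, 59.8 and 49.6 TPM in the U2-OS libraries, against 20.6, 30.9 and 14 TPM in the U251 libraries (log2 fold change 1.24, SE 0.29, edgeR adjusted p = 0.000797). With counts scaled for transcript length its log2 fold change was 0.96, under the limit. The checkpoint kinase CHEK2, which is not one of the 30, was higher too (46.9 ± 5.12 TPM in U2-OS, against 10.8 ± 1.3 TPM in U251, log2 fold change 1.79, SE 0.21, edgeR adjusted p = 1.07e-07). CDKN1A, the p21 inhibitor of cyclin-dependent kinases, averaged 59.5 ± 8.66 TPM in U2-OS, against 31.9 ± 2.52 TPM in U251. It was not called, as its fold was under the limit (log2 fold change 0.60, SE 0.20, edgeR adjusted p = 0.0142). The antiproliferative gene BTG2 (19.5 ± 5.37 TPM in U2-OS, against 0.634 ± 0.138 TPM in U251), the receptor EDA2R (9.6 ± 1.17 TPM in U2-OS, against 0.459 ± 0.127 TPM in U251) and the ribonucleotide reductase subunit RRM2B (57.4 ± 2.32 TPM in U2-OS, against 9.64 ± 3.03 TPM in U251) were higher. Also higher were the DNA damage binding protein DDB2 (76.2 ± 5.92 TPM in U2-OS, against 21.8 ± 4.73 TPM in U251), the ferredoxin reductase FDXR (36.9 ± 20 TPM in U2-OS, against 7.02 ± 2.83 TPM in U251), the glycolysis regulator TIGAR (32.9 ± 6.82 TPM in U2-OS, against 10.3 ± 1.56 TPM in U251) and SUSD6 (12.5 ± 4.33 TPM in U2-OS, against 3.8 ± 0.222 TPM in U251). The stress cytokine GDF15 (1.83 ± 1.36 TPM in U2-OS, against 45.1 ± 22.9 TPM in U251), PLK2, SESN2 and the TRAIL receptor TNFRSF10B (35.7 ± 6.2 TPM in U2-OS, against 90 ± 16.5 TPM in U251) were lower.

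The INK4 inhibitors CDKN2A, CDKN2B and CDKN2C, which block the cyclin D kinases CDK4 and CDK6, had no counts in any U251 library. CDKN2A, which encodes p16 and ARF on 9p21, had at most 0.134 TPM in any U2-OS library and no counts in U251, and did not pass the test (adjusted p = 0.369). Its neighbour CDKN2B had 3.1, 2.91 and 1.48 TPM in the U2-OS libraries, against 0 TPM in all 3 U251 libraries, at least 86.9-fold higher in U2-OS. MTAP, the next gene on 9p21, was expressed in both lines (49.5 ± 6.89 TPM in U2-OS, against 66.8 ± 12.2 TPM in U251) and was not called. D cyclins were divided: CCND2 had 40.9, 35.4 and 36.6 TPM in the U2-OS libraries, against 0.00812, 0.0163 and 0.045 TPM in the U251 libraries (log2 fold change 10.41, SE 0.62, adjusted p = 3.88e-12), CCND1 was lower (77 ± 5.06 TPM in U2-OS, against 168 ± 25.6 TPM in U251; log2 fold change -1.34, SE 0.18, adjusted p = 9.42e-07), and CCND3 was not called (35.7 ± 0.681 TPM in U2-OS, against 37.5 ± 3.32 TPM in U251). CCNE1, the cyclin of S phase entry, had 95.2, 101 and 123 TPM in the U2-OS libraries, against 6.45, 7.36 and 8.53 TPM in the U251 libraries (log2 fold change 3.67, SE 0.24, adjusted p = 6.32e-12), and the 7 other lines also lay below U2-OS. CDK6 was higher (75.5 ± 7.7 TPM in U2-OS, against 29.6 ± 11 TPM in U251), with a log2 fold change of 0.91, under the limit, without U251 replicate 3, CDK4 averaged 400 ± 44.9 TPM in U2-OS, against 240 ± 9.87 TPM in U251 without a call, and RB1, the target of these kinases, averaged 31.5 ± 2.56 TPM in U2-OS, against 37.6 ± 11.3 TPM in U251. RB1 had a log2 fold change of -0.46 (SE 0.24, adjusted p = 0.115).

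Of the 24 S phase and mitosis genes tested, 0 were called in either direction by edgeR, with 2 higher and 0 lower at an unadjusted p under 0.05; DESeq2 called 0, and limma on log2(TPM + 1) called 1, a higher one. Their log2 fold changes ran from -0.70 to 1.08. In the phosphoinositide 3-kinase pathway, the phosphoinositide phosphatase INPP4B was higher (28.4 ± 6.47 TPM in U2-OS, against 0.107 ± 0.062 TPM in U251; log2 fold change 7.48, SE 0.29, adjusted p = 4.87e-16), and the RAS inhibitor NF1 averaged 42.3 ± 3.07 TPM in U2-OS, against 8.71 ± 3.44 TPM in U251. PHLPP1, a phosphatase of AKT, was lower (6.97 ± 2.02 TPM in U2-OS, against 12.2 ± 1.48 TPM in U251; log2 fold change -1.69, SE 0.15, adjusted p = 1.05e-09), but under the limit on the log2(TPM + 1) scale (-0.76). Of 18 DNA repair genes edgeR called 1, a higher one, and limma on log2(TPM + 1) called 2, both higher. The gene that edgeR called was MGMT, which removes alkyl groups from guanine (4.57 ± 1.52 TPM in U2-OS, against 0.0223 ± 0.0193 TPM in U251; 159-fold higher in U2-OS with 2 counts in U251, 95% counting interval 43.7 to 1316, adjusted p = 1.52e-11). MGMT stayed under 5 TPM and is named although it falls outside the rule for naming genes.

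Among 13 telomere genes 2 were higher and 1 lower. TERT, the catalytic subunit of telomerase, was called lower in U2-OS at very low levels. It had 0, 0.0272 and 0.0245 TPM in the U2-OS libraries, against 0.121, 0.872 and 0.0963 TPM in the U251 libraries (13-fold lower in U2-OS with 2 counts in U2-OS, 95% counting interval 3.18 to 114, adjusted p = 0.00584), 1 U251 library held most of the signal, and the call was lost on the log2(TPM + 1) scale (adjusted p = 0.204). ATRX, a chromatin remodeller that is lost in many tumours with telomerase-free telomere maintenance, had more RNA in U2-OS, with 112, 109 and 86 TPM in the U2-OS libraries, against 13.2, 20.5 and 9.97 TPM in the U251 libraries. ATRX had a log2 fold change of 1.86 (SE 0.29, adjusted p = 9.81e-06). The transcripts behind this total differed. In U2-OS the retained-intron transcript ATRX-218 took 42.5% of the gene's TPM, the coding transcript ATRX-202 32.7% and the decay-class transcript ATRX-210 15%, against 12.8%, 41.7% and 2.24% in U251. Although its share was smaller in U2-OS, ATRX-202 stood at 33.1 TPM there and 6.02 TPM in U251. The longest coding form, ATRX-201, was at 1.71 TPM in U2-OS and 1.84 TPM in U251. The coding transcript ATRX-207 was at 0 TPM in U2-OS and 1.63 TPM in U251. The coding transcripts ATRX-211, ATRX-213, ATRX-214, ATRX-217 and ATRX-219 were also at 0 TPM in U2-OS, and at 0.00568 to 0.547 TPM in U251. The remaining coding transcripts were higher in U2-OS, ATRX-203 at 1.34 TPM against 0.118 TPM and ATRX-208 at 6.27 TPM against 0.881 TPM. DAXX, the histone chaperone that partners ATRX, was also called higher (19.9 ± 7.66 TPM in U2-OS, against 0.432 ± 0.242 TPM in U251), but it lies in the MHC region (chr6:33318558-33323016), where alternate copies can take reads, so its value is uncertain. The shelterin genes TERF1 (47.2 ± 9.58 TPM in U2-OS, against 21.1 ± 5.19 TPM in U251), TERF2 (32.3 ± 3.95 TPM in U2-OS, against 17.5 ± 2.61 TPM in U251) and POT1 (21 ± 2.14 TPM in U2-OS, against 31.1 ± 4.64 TPM in U251) had folds under the limit. So did the shelterin genes TERF2IP (log2 fold change -0.84), ACD (0.12) and TINF2 (0.37).

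Growth factor receptors were redistributed: 10 of 26 tested were higher in U2-OS and 8 lower, with a median of 0.25 (3 lower on the log2(TPM + 1) scale). The FGF receptor FGFR4 had 23.3, 16.4 and 9.82 TPM in the U2-OS libraries, against 0.791, 0.617 and 1.14 TPM in the U251 libraries (log2 fold change 4.25, SE 0.46, adjusted p = 3.71e-08) and FGFR2 averaged 8.5 ± 1.09 TPM in U2-OS, against 1.05 ± 0.252 TPM in U251. PDGFRA had 10.7, 7.81 and 4.55 TPM in the U2-OS libraries, against 0.631, 1.53 and 0.919 TPM in the U251 libraries (log2 fold change 3.60, SE 0.38, adjusted p = 4.57e-08) and PDGFRB 33.5, 26.8 and 13.9 TPM in the U2-OS libraries, against 6.27, 6.57 and 8.86 TPM in the U251 libraries (log2 fold change 1.53, SE 0.37, adjusted p = 0.00125), so both PDGF receptors were higher in U2-OS. IGF1R, the receptor of insulin-like growth factors, averaged 46.6 ± 5.59 TPM in U2-OS, against 10.5 ± 0.935 TPM in U251 (log2 fold change 1.18), and ROR2, a WNT5A receptor of the skeleton, had no counts in U251 (5.9, 4.2 and 4.8 TPM in U2-OS; at least 256-fold). The TAM kinase MERTK was higher (4.97 ± 0.42 TPM in U2-OS, against 0.233 ± 0.0459 TPM in U251).

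On the other side stood EGFR, with 6.2, 6.07 and 13.9 TPM in the U2-OS libraries, against 22.9, 25.6 and 12.8 TPM in the U251 libraries (log2 fold change -1.66, SE 0.27, adjusted p = 1.70e-05), and the highest U2-OS library lay just above the lowest U251 library on the TPM scale. AXL, a TAM kinase of mesenchymal tumour cells, was lower (171 ± 55.3 TPM in U2-OS, against 418 ± 61.6 TPM in U251; log2 fold change -1.47, SE 0.36, adjusted p = 0.00136), as were the collagen receptor DDR2 (17.9 ± 3.8 TPM in U2-OS, against 61.6 ± 16.6 TPM in U251), the mannose 6-phosphate receptor IGF2R (39.6 ± 2.5 TPM in U2-OS, against 78 ± 6.44 TPM in U251) and KIT (no counts in U2-OS; 0.557, 0.582 and 0.304 TPM in U251). MET was called lower (29.1 ± 16 TPM in U2-OS, against 50.1 ± 13.3 TPM in U251; log2 fold change -1.04, SE 0.36, adjusted p = 0.0174) with overlapping libraries, and the call was lost with DESeq2 (log2 fold change -0.99) and when any 1 of 4 libraries (U2-OS replicate 1 or 2, U251 replicate 1 or 2) was left out. On the log2(TPM + 1) scale KIT (-0.56) and IGF2R (-0.96) were under the limit. The call of EGF, a ligand described next, was lost with counts scaled for transcript length (adjusted p = 0.148).

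Of 24 ligands 6 were higher and 8 lower (4 and 4 on the log2(TPM + 1) scale; 3 higher when tested against a 2-fold change). The heparin-binding factor MDK (midkine) averaged 390 ± 174 TPM in U2-OS, against 31.6 ± 13.2 TPM in U251. MDK had a log2 fold change of 3.30 (SE 0.34, adjusted p = 1.43e-08). VEGFA, the main angiogenic factor, had 34, 19.6 and 27.8 TPM in the U2-OS libraries, against 260, 279 and 232 TPM in the U251 libraries (log2 fold change -3.54, SE 0.31, adjusted p = 1.02e-09), and no other line was above U251. TGFA and EGF, ligands of EGFR, were lower (4.83 ± 1.44 TPM in U2-OS, against 36.3 ± 4.71 TPM in U251 for TGFA; 2.56 ± 1.3 TPM in U2-OS, against 5.28 ± 1.38 TPM in U251 for EGF), as was FGF5 (4.23 ± 4.43 TPM in U2-OS, against 21.5 ± 5.24 TPM in U251).

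Hedgehog signalling genes stood higher in U2-OS, 5 of 13 against 1 lower. The activator GLI2 had 39.7, 35.2 and 15.8 TPM in the U2-OS libraries, against 0, 0.0306 and 0.0108 TPM in the U251 libraries. GLI2 was 2135-fold higher in U2-OS with 2 counts in U251, 95% counting interval 591 to 17638, adjusted p = 4.92e-14. GLI1 and PTCH1 are transcribed when the pathway is active. GLI1 had 13.7, 11.9 and 9.19 TPM in the U2-OS libraries, against 0.78, 0.58 and 1.61 TPM in the U251 libraries. GLI1 had a log2 fold change of 4.16 (SE 0.52, adjusted p = 3.36e-07). PTCH1 had 29.6, 27.4 and 10.5 TPM in the U2-OS libraries, against 2.25, 4.79 and 3.04 TPM in the U251 libraries. PTCH1 had a log2 fold change of 3.14 (SE 0.29, adjusted p = 1.96e-09). HHIP, a decoy receptor that is also a target, averaged 16.9 ± 8.55 TPM in U2-OS, against 1.2 ± 0.242 TPM in U251. For GLI1, GLI2, PTCH1 and HHIP no other line lay above U2-OS.

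In the BMP and TGF-beta list 13 of 30 genes were higher and 5 lower (3 lower on the log2(TPM + 1) scale). The bone morphogenetic proteins BMP4, BMP5 and BMP7 were higher: BMP4 had 157, 175 and 85.5 TPM in the U2-OS libraries, against 1.51, 1.56 and 2.59 TPM in the U251 libraries (log2 fold change 6.40, SE 0.33, adjusted p = 6.82e-14), BMP5 averaged 36 ± 3.19 TPM in U2-OS, against 0.0228 ± 0.0209 TPM in U251 (log2 fold change 10.16) and BMP7 15.9 ± 6.92 TPM in U2-OS, against 0.0267 ± 0.024 TPM in U251 (706-fold higher in U2-OS with 2 counts in U251, 95% counting interval 195 to 5832). Their extracellular antagonist NOG was higher too (15.8 ± 1.71 TPM in U2-OS, against 0.736 ± 0.171 TPM in U251; log2 fold change 4.19). TGFB1 was lower (52.6 ± 5.52 TPM in U2-OS, against 105 ± 37.7 TPM in U251; log2 fold change -1.39, SE 0.28, adjusted p = 0.000161; log2 fold change -0.94 without U251 replicate 3), along with TGFBI, a matrix protein it is known to induce. TGFBI had 149, 150 and 101 TPM in the U2-OS libraries, against 910, 1410 and 1308 TPM in the U251 libraries. TGFBI had a log2 fold change of -4.50 (SE 0.30, adjusted p = 7.88e-12).

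WNT pathway genes were called higher in 9 of 31 and lower in 5, against 21.9% and 13.9% of all genes. AXIN2, a feedback inhibitor that beta-catenin induces, had 14.4, 19.3 and 9.48 TPM in the U2-OS libraries, against 1.41, 1.4 and 0.596 TPM in the U251 libraries (log2 fold change 3.66, SE 0.37, adjusted p = 9.48e-09), and the co-receptor LRP6 averaged 16.6 ± 2.19 TPM in U2-OS, against 4.64 ± 1.59 TPM in U251 (log2 fold change 1.27). DKK1, which blocks LRP6, was among the lower genes with the largest change, as given above. The ligand WNT5B was lower (4.53 ± 1.29 TPM in U2-OS, against 54.1 ± 5.73 TPM in U251, log2 fold change -3.93). In the Notch list, 6 of 15 were higher and 4 lower (2 and 2 on the log2(TPM + 1) scale): NOTCH3 had 28.5, 19.4 and 8.82 TPM in the U2-OS libraries, against 0.127, 0.219 and 0.00834 TPM in the U251 libraries (log2 fold change 8.84, SE 0.59, adjusted p = 8.48e-12), whereas the ligand JAG1 (17.5 ± 0.912 TPM in U2-OS, against 146 ± 22.2 TPM in U251; log2 fold change -3.38) and the target HEY1 (2.83 ± 0.224 TPM in U2-OS, against 9.34 ± 1.69 TPM in U251; log2 fold change -1.84) were lower. Among Eph receptors and ephrins, 7 of 18 were higher and 4 lower. EFNB2, a ligand of vessel and neural boundaries, had 0.0752, 0.113 and 0.102 TPM in the U2-OS libraries, against 30.4, 36.7 and 27.7 TPM in the U251 libraries (log2 fold change -8.55, SE 0.35, adjusted p = 1.27e-15), the receptor EPHA3 averaged 0.633 ± 0.201 TPM in U2-OS, against 62.2 ± 13.6 TPM in U251, and EFNB3 was higher (16.6 ± 4.58 TPM in U2-OS, against 1.13 ± 0.104 TPM in U251).

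**Figure D2:**
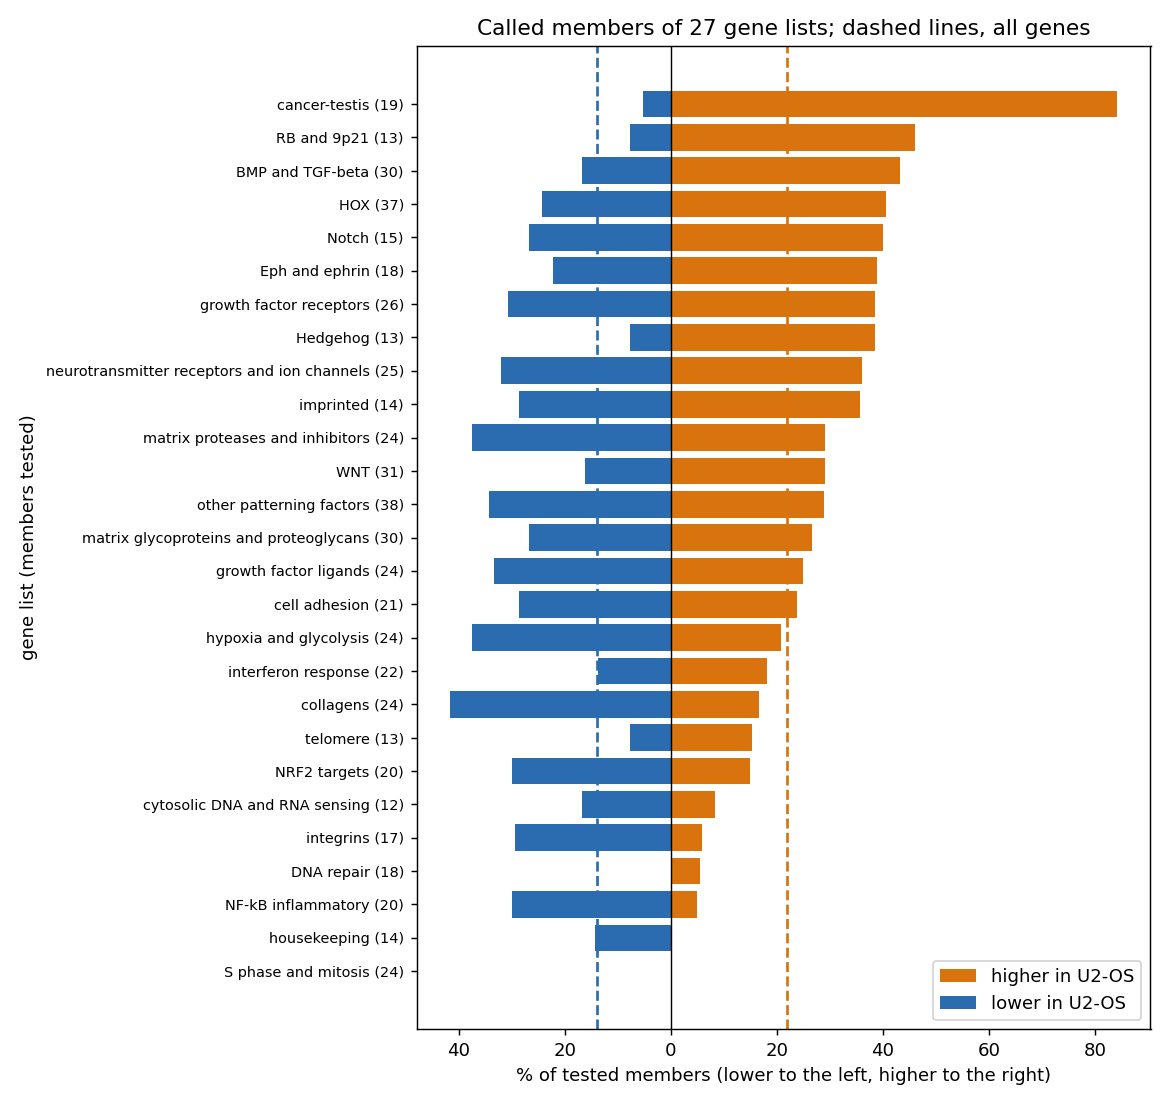
Percentage of the tested members of the gene lists that were called higher in U2-OS (orange, to the right) or lower (blue, to the left), with dashed lines at the 21.9% and 13.9% of all 17220 genes. Cancer-testis genes have the largest share of higher calls, 16 of 19, and collagens the largest share of lower calls, 10 of 24.

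The extracellular matrix of the lines differed gene by gene. Collagens were more often lower in U2-OS, 10 of 24 against 4 higher, with a median of -0.61 (4 lower when tested against a 2-fold change). Besides COL1A2, the lower ones were led by COL7A1, the anchoring fibril collagen of skin (2.46 ± 0.672 TPM in U2-OS, against 45.6 ± 6.17 TPM in U251; log2 fold change -5.24), COL13A1 (15.7 ± 7.82 TPM in U2-OS, against 59.9 ± 11 TPM in U251) and COL8A1 (20.3 ± 7.45 TPM in U2-OS, against 54.3 ± 11 TPM in U251). Higher were COL1A1, the fibrillar COL3A1 (29 ± 15.4 TPM in U2-OS, against 0.056 ± 0.0413 TPM in U251; log2 fold change 8.72), COL5A3 and COL16A1. Of matrix glycoproteins and proteoglycans, 8 of 30 were higher and 8 lower. The fibrillins lay on opposite sides: FBN2 had 61.2, 60.7 and 49.1 TPM in the U2-OS libraries, against 0.199, 0.144 and 0.0851 TPM in the U251 libraries. FBN2 had a log2 fold change of 8.65 (SE 0.39, adjusted p = 8.01e-15). FBN1 had 14.7, 12.6 and 11.4 TPM in the U2-OS libraries, against 58.7, 74 and 66.7 TPM in the U251 libraries. FBN1 had a log2 fold change of -2.52 (SE 0.38, adjusted p = 5.35e-06). The hyaluronan-binding proteoglycan VCAN had 0.616, 0.723 and 0.577 TPM in the U2-OS libraries, against 194, 252 and 200 TPM in the U251 libraries (log2 fold change -8.36, SE 0.60, adjusted p = 2.55e-11), and the laminin chain LAMA1 was higher (25.5 ± 1.82 TPM in U2-OS, against 0.62 ± 0.127 TPM in U251) while LAMA4 was lower (10.1 ± 6.28 TPM in U2-OS, against 52.7 ± 6.72 TPM in U251).

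PLAU, the urokinase that activates plasminogen, had 17.7, 16.1 and 25.8 TPM in the U2-OS libraries, against 1173, 1213 and 1239 TPM in the U251 libraries. PLAU had a log2 fold change of -6.17 (SE 0.51, adjusted p = 2.86e-10). TIMP1, an inhibitor of metalloproteinases, was higher in U2-OS with 1110, 925 and 2427 TPM in the U2-OS libraries, against 183, 178 and 244 TPM in the U251 libraries. TIMP1 had a log2 fold change of 2.67 (SE 0.35, adjusted p = 6.75e-07). In the protease list 7 of 24 genes were higher and 9 lower. MMP3 was called higher, but 1 of the 3 U2-OS libraries held most of it (1.72, 3.71 and 25 TPM in the U2-OS libraries, against 0.0569, 0.0287 and 0.118 TPM in the U251 libraries). Integrins were called lower in 5 of 17 (3 on the log2(TPM + 1) scale) and higher in 1; ITGA3, a laminin receptor chain, averaged 167 ± 38.6 TPM in U2-OS, against 442 ± 6.7 TPM in U251 (log2 fold change -1.65) and ITGB3 5.53 ± 0.996 TPM in U2-OS, against 19.7 ± 2.86 TPM in U251 (log2 fold change -2.09). Among adhesion molecules, the nectin-like CADM3 had 80.1, 72.4 and 33 TPM in the U2-OS libraries, against 1.18, 0.949 and 0.668 TPM in the U251 libraries. CADM3 had a log2 fold change of 6.08 (SE 0.41, adjusted p = 3.79e-11). The neuronal cadherin CDH2 (67.7 ± 2.79 TPM in U2-OS, against 177 ± 30 TPM in U251; log2 fold change -1.71) and NRCAM (1.04 ± 0.513 TPM in U2-OS, against 23.4 ± 6.42 TPM in U251; log2 fold change -5.09) were lower.

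HOX genes, which record position along the body axis, were called higher in 15 of 37 and lower in 9 (3 lower on the log2(TPM + 1) scale). In the A cluster, genes of the posterior end were higher: HOXA10 had 16.3, 17 and 15.2 TPM in the U2-OS libraries, against 0.0759, 0.115 and 0 TPM in the U251 libraries (log2 fold change 7.90, SE 0.43, adjusted p = 2.09e-13), HOXA9 averaged 12.2 ± 2.93 TPM in U2-OS, against 0.139 ± 0.203 TPM in U251 and HOXA11 9.28 ± 0.342 TPM in U2-OS, against 0.576 ± 0.142 TPM in U251. HOXC11 was higher as well (6.94 ± 2.11 TPM in U2-OS, against 0.215 ± 0.0179 TPM in U251). In the D cluster HOXD10 and HOXD11 were lower, with HOXD10 at 4.17, 5.49 and 1.67 TPM in the U2-OS libraries, against 15.1, 16.7 and 14.9 TPM in the U251 libraries (log2 fold change -2.44, SE 0.41, adjusted p = 4.16e-05) and HOXD11 at 3.05 ± 1.42 TPM in U2-OS, against 11.5 ± 1.54 TPM in U251. Other patterning factors included 11 of 38 higher (7 on the log2(TPM + 1) scale) and 13 lower. IRX1 (no counts in U2-OS; 10.8, 4.5 and 10.9 TPM in U251; at least 291-fold) was lower, as was ZIC1 (0.096 ± 0.157 TPM in U2-OS, against 10.9 ± 2.86 TPM in U251). TBX18 (7.18 ± 1.82 TPM in U2-OS, against 0.00847 ± 0.0147 TPM in U251), MSX2 and TBX15 (5.92 ± 0.967 TPM in U2-OS, against 0.188 ± 0.0282 TPM in U251), factors of limb and axial mesenchyme, were higher.

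Cancer-testis genes, which are normally transcribed in germ cells and silent in other tissues, had the largest share of higher calls among tested members of the 42 lists. Of 19 tested members 16 were higher in U2-OS and 1 lower (TKTL1, outside the naming rule and under 1 TPM in both), with a median of 6.73. That share depends on the count filter, which a silent gene can pass only through a line where it is on. Of 29 matched members, 16 averaged 1 TPM or more in U2-OS and 4 in U251. PAGE2B had 437, 423 and 395 TPM in the U2-OS libraries, against 0 TPM in all 3 U251 libraries (at least 1685-fold). PRAME, a repressor of retinoic acid signalling, averaged 193 ± 29.3 TPM in U2-OS, against 0.0183 ± 0.0317 TPM in U251. PRAME was 8495-fold higher in U2-OS with 2 counts in U251, 95% counting interval 2351 to 70152, adjusted p = 1.23e-14. MAGEB2 had 100, 119 and 145 TPM in the U2-OS libraries, against 0, 0.0744 and 0 TPM in the U251 libraries. MAGEB2 was 3855-fold higher in U2-OS with 2 counts in U251, 95% counting interval 1067 to 31839, adjusted p = 2.78e-11. MAGEA4 and MAGEA1 were chosen after their values were seen. MAGEA4 had 195, 194 and 253 TPM in the U2-OS libraries, against 0.102, 0.0344 and 0 TPM in the U251 libraries. MAGEA4 had a log2 fold change of 11.50 (SE 0.48, adjusted p = 1.08e-14). MAGEA1 had 103, 122 and 140 TPM in the U2-OS libraries, against 0.378, 0.139 and 0.333 TPM in the U251 libraries. MAGEA1 had a log2 fold change of 8.52 (SE 0.35, adjusted p = 4.88e-14). PAGE2 had 548, 519 and 458 TPM in the U2-OS libraries, against 0, 0.164 and 0 TPM in the U251 libraries. PAGE2 was 7350-fold higher in U2-OS with 1 count in U251, 95% counting interval 1319 to 290356, adjusted p = 5.18e-10. No other line lay above U2-OS for PAGE2, PAGE2B, PRAME or MAGEB2. The PAGE and MAGE families hold near-identical copies, so the share of single members is uncertain; the 10 members that were not tested averaged under 1 TPM in both lines. Imprinted genes, expressed from 1 parental copy, were called higher in 5 of 14 and lower in 4: NDN had 104, 101 and 81.7 TPM in the U2-OS libraries, against 0.0299, 0 and 0 TPM in the U251 libraries (7456-fold higher in U2-OS with 1 count in U251, 95% counting interval 1338 to 294549, adjusted p = 1.43e-12) and PEG3 was at least 946-fold higher, whereas MEST (0.114 ± 0.174 TPM in U2-OS, against 17.5 ± 2.08 TPM in U251; 738-fold lower in U2-OS with 3 counts in U2-OS, 95% counting interval 252 to 3579) and PEG10 (1.97 ± 0.395 TPM in U2-OS, against 32.7 ± 3.14 TPM in U251; log2 fold change -4.14) were lower.

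Genes of low oxygen and glycolysis were more often lower in U2-OS, 9 of 24 against 5 higher, with a median of -0.67. Hypoxia-inducible factors bind the motif ACGTG upstream of many of these genes. CA9, a carbonic anhydrase that is a standard hypoxia marker, had 0.341, 1.03 and 0.347 TPM in the U2-OS libraries, against 16.2, 24.4 and 25.5 TPM in the U251 libraries. CA9 had a log2 fold change of -6.62 (SE 0.96, adjusted p = 4.59e-06). VEGFA was given above, ADM, the vasodilator adrenomedullin, averaged 3.12 ± 0.57 TPM in U2-OS, against 27.2 ± 3.93 TPM in U251 (log2 fold change -3.29), and the glucose transporter SLC2A1 averaged 55.1 ± 10 TPM in U2-OS, against 297 ± 29.2 TPM in U251. SLC2A1 had a log2 fold change of -2.68 (SE 0.25, adjusted p = 3.60e-09). LDHA, which makes lactate from pyruvate, was higher instead, with 1342, 1554 and 1830 TPM in the U2-OS libraries, against 18.5, 22.6 and 16.4 TPM in the U251 libraries. LDHA had a log2 fold change of 5.77 (SE 0.25, adjusted p = 3.85e-15). All 7 other lines lay above U251 for LDHA. Of the LDHA transcripts, LDHA-203 held 39.6% of the gene in U2-OS and 95.8% in U251, while LDHA-206 was at 572 TPM in U2-OS and 0.338 TPM in U251. The sister subunit LDHB, chosen after its values were seen, was not called (1478 ± 172 TPM in U2-OS, against 1653 ± 108 TPM in U251; log2 fold change -0.38, SE 0.21, adjusted p = 0.128). The paralogous transporter SLC2A3 (26.6 ± 4.77 TPM in U2-OS, against 4.06 ± 0.591 TPM in U251; log2 fold change 2.55) and CA12 (12.8 ± 1.76 TPM in U2-OS, against 0.156 ± 0.124 TPM in U251; log2 fold change 6.02) were higher in U2-OS.

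**Figure D3:**
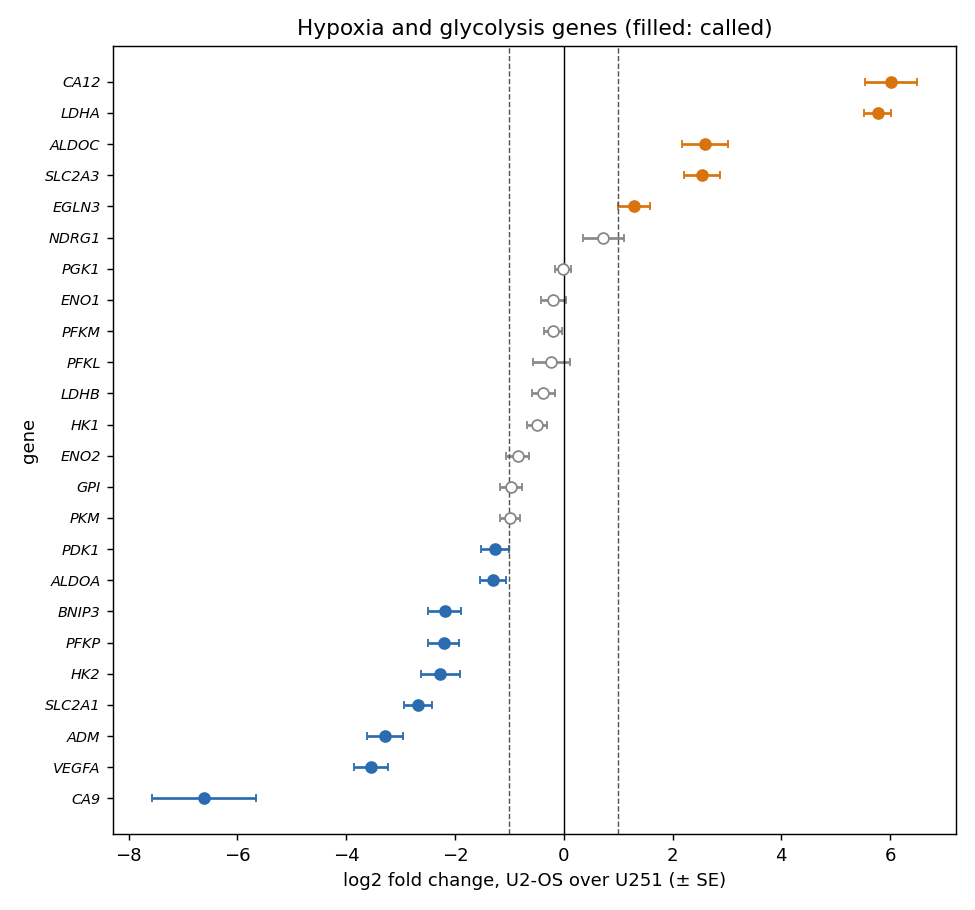
Log2 fold change (U2-OS over U251) with SE for the 24 genes of the hypoxia and glycolysis list, sorted, with called genes filled. LDHA and CA12 lie near 6 at the top, CA9 at -6.62 at the bottom, and dashed lines mark the limits at 1 and -1.

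To show the motif, the 250 bases before the RefSeq start (GRCh38.p14) are given for 3 genes, with every ACGTG, read on either strand, in capitals. CA9 and LDHA fall under the naming rule; BNIP3, a mitophagy receptor that was lower in U2-OS (19.3 ± 4.96 TPM in U2-OS, against 77.7 ± 3.98 TPM in U251; log2 fold change -2.19), was chosen after its values were seen. The windows are chr9:35673678-35673927 (plus strand) for CA9, chr10:131981924-131982173 (minus strand) for BNIP3 and chr11:18394313-18394562 (plus strand) for LDHA.
CA9: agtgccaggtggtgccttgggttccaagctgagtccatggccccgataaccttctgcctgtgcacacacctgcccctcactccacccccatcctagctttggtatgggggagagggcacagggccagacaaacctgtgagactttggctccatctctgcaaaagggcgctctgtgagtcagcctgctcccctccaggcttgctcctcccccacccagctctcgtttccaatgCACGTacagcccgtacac
BNIP3: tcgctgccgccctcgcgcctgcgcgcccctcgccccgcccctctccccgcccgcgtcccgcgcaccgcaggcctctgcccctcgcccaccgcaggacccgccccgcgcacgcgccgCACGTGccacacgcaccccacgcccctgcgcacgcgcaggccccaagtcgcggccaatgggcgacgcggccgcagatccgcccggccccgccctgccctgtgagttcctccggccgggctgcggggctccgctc
LDHA: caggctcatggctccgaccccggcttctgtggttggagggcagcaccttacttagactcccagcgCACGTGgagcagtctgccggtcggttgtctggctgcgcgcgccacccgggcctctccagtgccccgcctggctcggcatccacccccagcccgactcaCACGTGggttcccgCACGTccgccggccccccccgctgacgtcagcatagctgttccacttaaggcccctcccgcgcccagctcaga
The CA9 window holds 1 match, 18 bases before the start. The BNIP3 window holds the palindrome CACGTG, which reads as ACGTG on both strands, and the LDHA window holds 5 overlapping matches at 3 places. Over all 35116 windows of this length, 18.5% hold the motif, and 21.7% of 27305 genes have it in at least 1 window. Of the 21 list genes with a window, 12 have it: 2 of 4 called higher, 6 of 8 called lower and 4 of 9 not called. LDHA has 2 windows in the table, of which 1 holds the motif and is the one shown. VEGFA, NDRG1 and SLC2A3 had no window in the table. The letters were present in genes of both directions.

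Antioxidant genes that NRF2 induces were lower in 6 of 20 (3 when tested against a 2-fold change) and higher in 3. The glutathione synthesis subunit GCLM (38.3 ± 6.89 TPM in U2-OS, against 76.8 ± 13 TPM in U251; log2 fold change -1.48), the cystine transporter SLC7A11 (14.3 ± 2.47 TPM in U2-OS, against 33 ± 13.4 TPM in U251; log2 fold change -1.39) and the aldo-keto reductase AKR1C1 (0.209 ± 0.154 TPM in U2-OS, against 6.52 ± 0.348 TPM in U251; log2 fold change -4.07) were lower. The malic enzyme ME1 had 16.2, 20.3 and 14 TPM in the U2-OS libraries, against 0, 0.0163 and 0.314 TPM in the U251 libraries. ME1 had a log2 fold change of 7.23 (SE 0.52, adjusted p = 2.78e-11). Inflammatory NF-kB genes were lower in 6 of 20 and higher in 1 (3 by DESeq2): IL11, a cytokine of the IL-6 family, had 7.65, 9.63 and 6.86 TPM in the U2-OS libraries, against 90.8, 60.8 and 93.1 TPM in the U251 libraries. IL11 had a log2 fold change of -3.76 (SE 0.37, adjusted p = 8.19e-09). CXCL8 averaged 1.41 ± 0.968 TPM in U2-OS, against 14.1 ± 6.54 TPM in U251 (log2 fold change -3.63).

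In the sensing of cytosolic DNA, the sensor and its adaptor lay on opposite sides. CGAS, which makes cyclic GMP-AMP from DNA, had 4.17, 5.67 and 5.38 TPM in the U2-OS libraries, against 0.059, 0.0347 and 0 TPM in the U251 libraries. CGAS had a log2 fold change of 6.94 (SE 0.51, adjusted p = 4.27e-11). TMEM173, the adaptor STING, had 3.91, 4.15 and 2.46 TPM in the U2-OS libraries, against 17.1, 17.9 and 18.5 TPM in the U251 libraries. TMEM173 had a log2 fold change of -2.47 (SE 0.26, adjusted p = 2.83e-08). MAVS, the adaptor for RNA sensors, averaged 6.86 ± 0.456 TPM in U2-OS, against 17.3 ± 3 TPM in U251 (log2 fold change -1.56). IFI16, a nuclear DNA sensor, averaged 51.2 ± 9.37 TPM in U2-OS, against 79.7 ± 6.61 TPM in U251 without a call, and AIM2 had no counts in either line. Interferon response genes were called higher in 4 of 22 and lower in 3, near the 21.9% and 13.9% of all genes. BST2 was called higher (7.83 ± 2.06 TPM in U2-OS, against 2.29 ± 0.733 TPM in U251). Its edgeR adjusted p was 0.0502 to 0.0918 when U2-OS replicate 1 or 2 or U251 replicate 1 or 2 was left out. GBP1 was lower (1.39 ± 0.344 TPM in U2-OS, against 23.9 ± 3.79 TPM in U251, log2 fold change -4.69). Ion channels and transmitter receptors were called higher in 9 of 25 and lower in 8 (6 and 3 on the log2(TPM + 1) scale): the potassium channel KCNMA1 averaged 10.7 ± 4.78 TPM in U2-OS, against 51.8 ± 4.65 TPM in U251 (log2 fold change -2.97). Of 14 housekeeping genes, HPRT1 (64.8 ± 18.2 TPM in U2-OS, against 168 ± 30.2 TPM in U251; log2 fold change -1.63) and B2M (1196 ± 83.2 TPM in U2-OS, against 2267 ± 390 TPM in U251; log2 fold change -1.14) were lower; 0 were higher by edgeR, DESeq2 or limma, with 2 higher at an unadjusted p under 0.05.

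Differences were not spread evenly over the chromosomes. The median log2 fold change was highest on chromosome 22 (0.80; 38.3% of its 418 tested genes higher and 4.55% lower) and on chromosome 14 (0.58; 32.5% higher and 6.28% lower). It was lowest on chromosome 13 (-0.23) and chromosome 6 (-0.18). Among genes at 5 TPM or more in either line the medians were 0.70 on chromosome 22, 0.53 on 14, -0.23 on 13 and -0.35 on 6; on this set chromosome 19 was lowest (-0.44), and chromosome 3 (-0.31) also lay below 13. Within chromosome 14 the stretch from 40 to 80 Mb, chosen after the values were seen, had a median of 0.97, with 105 of 228 genes higher and 7 lower. In windows of 10 Mb on either side the medians were 0.39 and 0.13 from 20 to 40 Mb and 0.11, -0.05 and -0.38 from 80 Mb on.

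On chromosome 6, 6 of the 12 genes with the largest drop lay on the long arm (POU3F2, POPDC3, BVES, NT5E, MARCKS and EYA4). NT5E lies at chr6:85449584-85495791, POU3F2 at chr6:98834592-98839470, POPDC3 at chr6:105158280-105179995, MARCKS at chr6:113857362-113863471 and EYA4 at chr6:133240598-133532120 (GRCh38). From 80 to 130 Mb, a stretch chosen after the values were seen, 62 of 171 tested genes (36.3%) were lower and 15 (8.77%) higher, with a median of -0.83. Before 80 Mb the median was 0.00, with 12.8% lower and 21.5% higher, and from 130 Mb on, where EYA4 lies, it was -0.25, with 18.6% lower and 10.8% higher. DNA copy number was not measured here, and its part in these shifts was not tested. BMP5 (chr6:55753645-55875564) and CGAS (chr6:73413515-73452276), both higher in U2-OS, lie before 80 Mb on the same chromosome, and TBX18 (chr6:84687351-84764519) lies within the stretch.

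**Figure D4:**
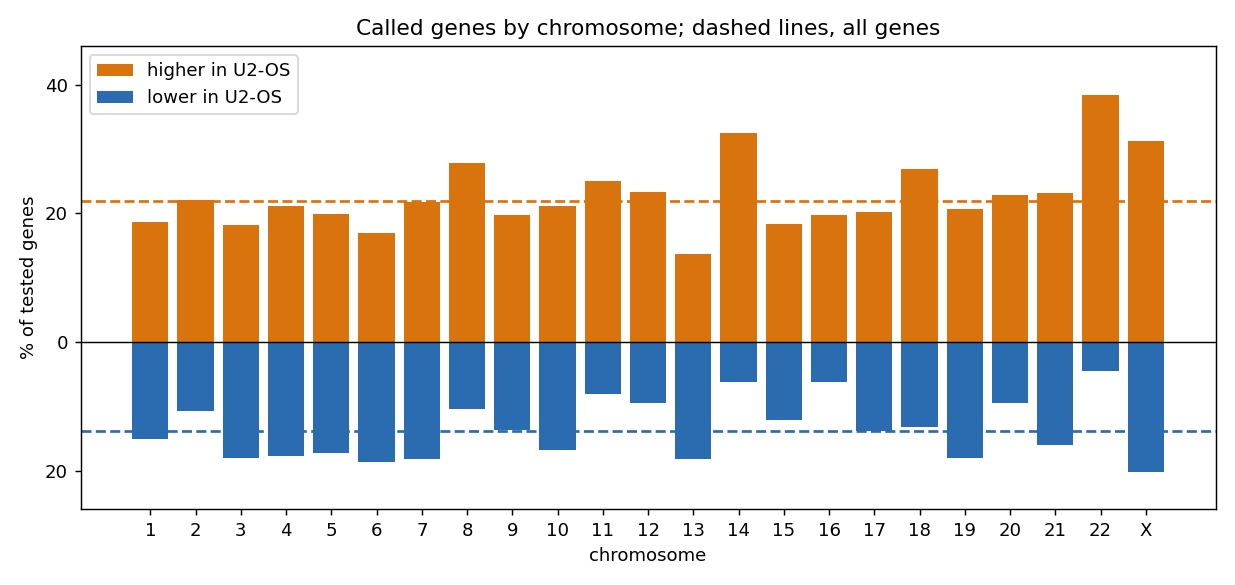
Percentage of tested genes called higher in U2-OS (orange, up) and lower (blue, down) on each chromosome, with dashed lines at the 21.9% and 13.9% of all genes. Chromosome 22 has 38.3% higher and 4.55% lower genes, chromosome 14 has 32.5% and 6.28%, and chromosome 6 has 16.9% and 18.6%.

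Lines can also differ in which transcript of a gene they make. Among 8989 genes at 5 TPM or more in both lines, the dominant transcript differed in 41 (0.456%) by at least 50 percentage points of the gene's TPM without overlap between libraries; for 23 of these, both transcripts were protein coding. PARP2, a DNA-damage-activated polymerase of ADP-ribose, is shown because both of its forms are coding and their coding sequences differ by a short segment. They are called here the short form (ENST00000429687) and the long form (ENST00000250416). The short form made up 89.8%, 88.8% and 88.4% of PARP2 in the U2-OS libraries, against 4.89%, 1.34% and 2.17% in the U251 libraries. The long form made up 0% in every U2-OS library, against 86%, 79.1% and 90.5% in the U251 libraries. In total PARP2 was higher in U2-OS (88 ± 7.98 TPM in U2-OS, against 36.5 ± 3.19 TPM in U251; log2 fold change 1.04, SE 0.20, adjusted p = 0.000124), close to the limit on the fold, which it missed in the 6 libraries alone (0.98) and without U2-OS replicate 2.

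Inside the coding sequence the forms differ by 39 bases at the end of exon 2 (chr14:20345088-20345126, plus strand, GRCh38), where the long form uses a donor site further downstream. The segment lies in the coding sequence, adds 13 codons and keeps the frame. It is shown in capitals, from the GENCODE 29 transcripts, with 30 bases on either side; the short form joins the flanks directly. Whole, the transcripts are 1881 bases in the short form and 1886 in the long form, so they also differ outside the coding sequence.
PARP2 long form: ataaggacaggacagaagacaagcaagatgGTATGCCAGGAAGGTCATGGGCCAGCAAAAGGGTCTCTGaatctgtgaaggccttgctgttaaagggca
PARP2 short form: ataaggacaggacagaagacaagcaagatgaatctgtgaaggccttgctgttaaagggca
Of the 7 other lines, Caco2 also used mainly the long form (70.9%, with 1.38% in the short form), and the remaining 6 had the short form at 46.7% to 94.3% and the long form at 0% to 4.64%.

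**Figure D5:**
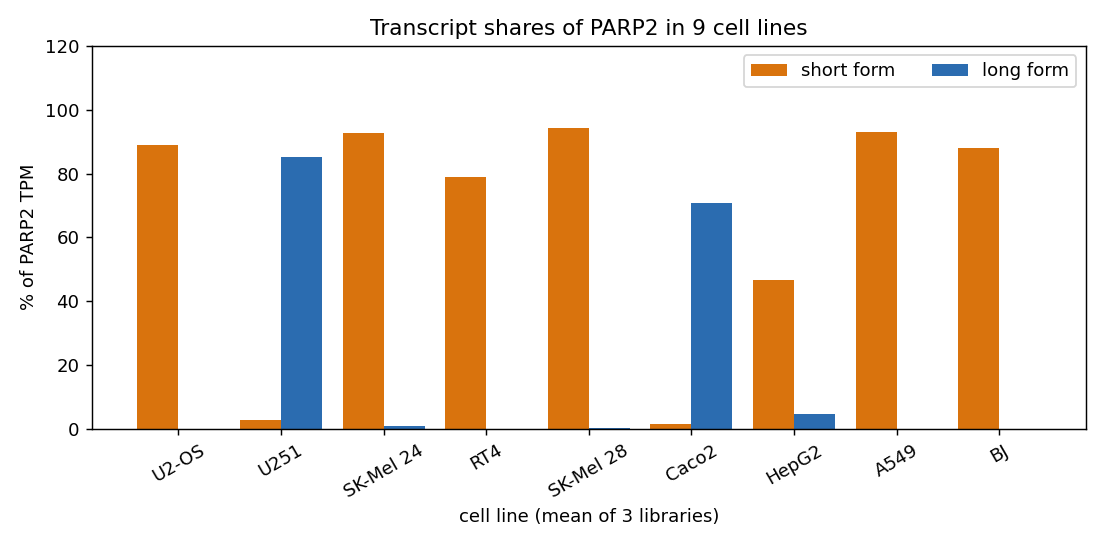
Share of PARP2 TPM in the short form (orange) and the long form (blue) in each of the 9 cell lines, as means of 3 libraries, with U2-OS and U251 first. U2-OS stands at 89% and 0%, U251 at 2.8% and 85.2%, and Caco2 at 1.38% and 70.9%.

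In some other genes with a switched transcript, the count and the TPM lay in opposite order or differed in size. WWC3, a scaffold of the Hippo pathway, was 98.8% ENST00000466248, a processed transcript without a coding sequence, in U2-OS and 92.8% ENST00000380861, the coding form, in U251. Its TPM was higher in U2-OS (26.9 ± 3.5 TPM in U2-OS, against 7.25 ± 0.779 TPM in U251) although its count was called lower (log2 fold change -2.32, SE 0.25, adjusted p = 3.85e-08; 1.61 with counts scaled for transcript length), and TPM divides by transcript length where a count does not. HOXB6 changed likewise, with nearly the same TPM (8.84 ± 0.905 TPM in U2-OS, against 8.66 ± 1.63 TPM in U251) and a lower count (log2 fold change -1.46). TGFBI was 50.3% TGFBI-207 in U2-OS and 77.7% TGFBI-201 in U251, with both its count and its TPM lower in U2-OS. FOPNL, ZNF595, PDE4B and ATL3 completed the 8 largest share differences. In all, 17 called genes had mean TPM values in the opposite order to their count, 11 of them at 5 TPM or more, all called lower; the glutamate transporter SLC1A3 was one (34 ± 15.8 TPM in U2-OS, against 29.3 ± 5.39 TPM in U251; log2 fold change -1.26, SE 0.29, adjusted p = 0.000834).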

How the data were processed

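RNA was read from poly-A libraries of 9 human cell lines, 27 libraries in all, 6 of them U2-OS and U251. Per the submitters' processing notes, the authors used CASAVA 1.8, kallisto 0.43.1 and GRCh 38; the sources used here give no annotation release and no settings. The deposited values are estimated counts and TPM per transcript, both made by the authors with kallisto, per the file headers. Estimated counts and TPM were summed here to GENCODE 29 genes: 159887 of 176241 transcripts matched, and the other 16354 (9.28%), which held 2.66% to 2.78% of the counts in the U2-OS libraries and 2.62% to 2.93% in the U251 libraries, were left out.

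Gene counts were rounded and filtered with filterByExpr, scaled by TMM and fitted over all 27 libraries with edgeR 4.0.16 (robust quasi-likelihood, R 4.3.3), which took the contrast of U2-OS over U251. The fit was tested on simulated data. The SE is the absolute log2 fold change over the square root of F. Alternatives used limma 3.58.1 on log2(TPM + 1) and DESeq2 1.42.0, among others. Motifs and coordinates use GRCh38.

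Members, gene lists and tests were chosen with earlier results of these data known. Named were the 12 protein-coding genes with the largest log2 fold change per direction (10 TPM or more in the higher line, libraries not overlapping), up to 4 called members per direction and list at 5 TPM or more, members of key lists, the 8 genes with the largest change in transcript share, and defining markers near 0; any other gene is marked in the text as picked with its values in view. Depth and replicate number set the precision: the common biological coefficient of variation was 24.2%. Replicate pairs of one line differed by 8.98 to 36.7 times the sampling noise, so none was counted as a copy. Some genes and lists are not reported here.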

Additional observations from a re-analysis of the deposited data

Results flagged for a closer look

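Transcripts that matched no GENCODE 29 gene, which enter no comparison, held up to 2.78% of the counts in a U2-OS library and up to 2.93% in a U251 library.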

How the results depend on the processing

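Of 196 named and tested genes, 175 were called, and 151 of these stayed called under every alternative that gave a value. Higher and lower calls were 3175 and 2450 in the 6 libraries alone, 3913 and 2240 with RLE size factors, 4079 and 2382 without a filter on low counts, and 3715 and 2194 with DESeq2. A test against a 2-fold change gave 2776 and 1385, and limma on log2(TPM + 1) gave 3185 and 1268; the first asks for more by construction, and for the second the cause was not tested. Leaving out each library in turn gave 3606 to 3880 higher and 2242 to 2408 lower. Counts scaled for transcript length, an alternative added after seeing the data, gave 3647 and 2296. The P numbers in the labels gave no pairing of libraries: libraries with the same number correlated at 0.311 and -0.0227 in their deviations, and a P number block gave 3615 and 2339 calls.

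On the log2(TPM + 1) scale HOXB6 (0.04), SLC1A3 (0.12) and WWC3 (1.75) reversed, and WWC3 also with length-scaled counts (1.61); the cause was not tested. Dominant transcripts differed in 21 genes at 10 TPM or more, in 210 at a difference of 30 percentage points, and in 38 to 46 when a library was left out. Lower calls among collagens (10) fell to 4 in the test against a 2-fold change, and among HOX genes (9) to 3 on the log2(TPM + 1) scale. Over all tested genes, lower calls fell from 2385 to 1385 and 1268 in these 2 settings. Low counts limit TERT, KIT and CDKN2A. Among genes named in the text, the test against a 2-fold change also lost AXL, B2M, BST2, CDK6, HOXB6, IGF1R, LRP6, MDM2, MET, PARP2, PDGFRB, SESN2, SLC1A3, SLC7A11 and TGFB1, and log2(TPM + 1) lost B2M, EGF, GCLM, MET, PTPRC, TGFB1 and TKTL1.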

Other observations

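In the first 20 Mb of the acrocentric chromosomes 13, 14, 21 and 22, a stretch chosen after the values were seen, 47 of 101 tested genes (46.5%) were higher in U2-OS and 9 (8.91%) lower, against 21.9% and 13.9% of all genes; chromosome 15 had no tested gene there. The share that was higher was 55.6% of 9 genes on chromosome 13 (12.3% in the rest of it), 100% of 11 on 14 (31.1%), 37.1% of 35 on 21 (19.9%) and 39.1% of 46 on 22 (38.2%), so chromosome 22 was about as often higher throughout. Of the 101 genes, 37 were not protein coding and 29 of those were higher; over the genome, 360 of 1134 tested non-coding genes (31.7%) were. The 11 genes on chromosome 14 had a median log2 fold change of 6.40. Of the 47 genes, 38 were above all 7 other lines by mean TPM, against 1711 of all 3776 genes called higher. Of the same 47, 19 had no counts in U251. Only genes that passed the count filter are counted, which they could do through the line where they were high. The shares therefore do not describe all genes of these stretches, and the count of 38 is no separate support.

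Families with copies in such regions were higher as well: 6 of 6 tested POTE genes (median log2 fold change 6.24), 3 of 3 DUXAP genes (6.84; means of 72.7 to 538 TPM in U2-OS, against 0 to 6.72 TPM in U251), 7 of 9 FRG1 genes and pseudogenes (2.02), 4 of 5 TPTE genes (3.40) and 6 of 9 ANKRD20A genes (3.93). Means in U2-OS were 0.381 to 2.72 TPM for POTE, 1.7 to 77.1 for FRG1, 0.566 to 7.81 for TPTE and 0.288 to 12.7 for ANKRD20A. In U251 they were at most 0.0767, 23.4, 1.82 and 0.601 TPM. Only members that passed the count filter are counted, which they could do through the line where they were high, so the fractions do not describe whole families. Their copies are near-identical, so the split of reads among them is uncertain, and the families were picked after seeing their values.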
